A study of Mus musculus with 9 samples.

Results

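Gene expression in the IS-caput epididymis of Nicol-/- mice was compared with that of Nicol+/- mice across all genes that passed a filter on low values. The series holds 9 RNA-seq libraries, of which the 3 Nicol-/- and 3 Nicol+/- libraries were compared. The other 3 come from Ros1-/- mice and entered the fit only to help estimate the spread between libraries. A gene was kept when its FPKM, the reads of a gene scaled to exon length and to the mapped reads of the library, was at least 1 in at least 3 of these 6 libraries, which kept 13341 of the 24346 genes in the table. The filter kept 117 genes through the Nicol-/- libraries alone and 146 through the Nicol+/- libraries alone, and those genes had to differ to be kept.

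The initial segment (IS) is the most proximal part of the epididymis, the duct in which sperm mature after leaving the testis. Its epithelium differentiates after birth under lumicrine signalling, in which proteins secreted by the testis travel down the lumen and act on the epididymal epithelium. NELL2 is such a protein, NICOL is a small secreted protein that acts with it, and their receptor is the tyrosine kinase ROS1, which signals through the ERK pathway. The differentiated epithelium secretes lipocalins, cystatins, beta-defensins and proteases into the fluid around the sperm.

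The study asked how the epididymal epithelium depends on NICOL. All mice were 14 weeks old, and the tissue was the IS dissected together with the caput, because the IS is hard to separate in the mutants. Nicol-/- mice (Nicole-/- in the sample labels) carry a CRISPR/Cas9 null allele without the protein coding sequence on both chromosomes. The deletion is present in every cell of the mouse, testis included, since no tissue-specific Cre was used. The Nicol+/- controls (Nicole+/-) carry the same allele on 1 chromosome and are not wild type, and both groups came from a line made on a B6D2F1 background. The series' description speaks of quadruplicates while 3 libraries per genotype are listed. The animals behind each library are not stated, so p-values here refer to library-to-library spread, part of which may be technical.

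Estimated depth ranged from 8721248 to 15153124 reads in Nicol-/- and from 8189631 to 16595565 reads in Nicol+/-, and libraries of a genotype correlated at 0.9814 to 0.9899 across genes. Nicol+/- replicate 3 stood apart in some caput genes. Lcn5, a lipocalin of the caput, was listed at 14865, 15605 and 8433 FPKM in Nicol-/- libraries, against 10498, 10201 and 2533 FPKM in Nicol+/- libraries, and Rnase9, a member of the RNase A family, at 2166, 2594 and 996 FPKM in Nicol-/-, against 1934, 1649.8 and 284 FPKM in Nicol+/- libraries. In both genes replicate 3 was the lowest library of its genotype, and the part that the extent of the dissection plays in the comparison was not tested. The abundant caput transcripts that mark the tissue were present in all 6 libraries, among them Gpx5, a glutathione peroxidase secreted by principal cells, at 27130.5, 27644 and 27584 FPKM in Nicol-/- and 23430.1, 34999.7 and 36736 FPKM in Nicol+/- libraries. In bulk tissue, fewer cells of a type and less RNA per cell cannot be told apart.

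The targeted gene followed its labels. Gm1673, which encodes NICOL and lies on chromosome 5, was listed at 0 in the 3 Nicol-/- libraries and at 8.69, 9.09 and 6.05 FPKM in the Nicol+/- libraries. Nell2, whose product comes from the testis, stayed under the filter with at most 0.323 FPKM in Nicol-/- and 0.394 FPKM in Nicol+/- libraries. Ros1 was lower in Nicol-/- at 19, 24.7 and 16.8 FPKM, against 40.7, 41.9 and 47.95 FPKM in Nicol+/- (log2 fold change -1.09, standard error 0.13, adjusted p = 0.000628), so the receptor transcript remained in every mutant library. Ptpn6, which encodes the phosphatase SHP-1 that binds ROS1, had 10.04, 8.43 and 10.9 FPKM in Nicol-/- and 12.6, 14.9 and 12.2 FPKM in Nicol+/- (log2 fold change -0.40, standard error 0.12, adjusted p = 0.0469). The groups did not overlap, but the Ptpn6 call was lost with a replicate block (adjusted p = 0.118) and in the fits that left out a Nicol+/- library or replicate 1 or 2 of Nicol-/- (adjusted p of 0.0743 to 0.134), as well as replicate 1 or 2 of the Ros1-/- libraries that share the fit (0.0722 and 0.0578). Ovch2, a protease made by the differentiated IS, had 39.1, 32.5 and 32.8 FPKM in Nicol-/-, against 578, 626 and 847 FPKM in Nicol+/- libraries (log2 fold change -4.24, standard error 0.14, adjusted p = 1.68e-07). Ovch2 transcript was thus about 19.7-fold lower in Nicol-/- yet well above 0 in each of those libraries. Adam28, which encodes another secreted protease, was close to 0 in Nicol-/- at 0.0564, 0.029 and 0.083 FPKM, against 728, 702 and 1158 FPKM in Nicol+/- (log2 fold change -9.64, standard error 0.17, adjusted p = 2.79e-09).

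Genes that fell did so by far larger factors than genes that rose. With limma and a Benjamini-Hochberg adjusted p threshold of 0.05, 1640 of the 13341 genes (12.3%) were lower in Nicol-/- and 1229 (9.21%) were higher, on a log2(FPKM + 1) scale that understates the change of genes with low FPKM. The median change of all tested genes was 0.0002 on this scale, and the median size of a call was much the same in both directions, 0.60 among the falls and 0.59 among the rises. The directions parted in the tail. Of the falls 420 exceeded 2-fold, 156 exceeded 4-fold and 41 exceeded 16-fold, while of the rises 128 exceeded 2-fold, 3 exceeded 4-fold and 0 exceeded 16-fold. Every Nicol-/- library lay below every Nicol+/- library for 20.6% of all tested genes and above for 17.4%, and the smallest p that exact permutation of 3 and 3 libraries allows is 0.1. More of the large falls than of the other calls were kept across the choice of libraries. The classes were cut by size in these same data, so this order follows in part from the cut. Falls over 2-fold had a median log2 fold change of -1.57 and rises over 2-fold one of 1.15. All 41 falls over 16-fold, 405 of 420 falls over 2-fold, 934 of all 1640 falls, 66 of 128 rises over 2-fold and 427 of all 1229 rises were called whichever of the 9 libraries in the fit was left out. With the replicate number as a block in a fit of the 6 libraries, the genes lower in Nicol-/- numbered 1016 and the genes higher in Nicol-/- numbered 797, of which 980 and 639 were among the calls above. Leaving out Nicol+/- replicate 3 gave 966 lower and 525 higher, and leaving out Nicol-/- replicate 1 gave 793 higher.

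**Figure D1:**
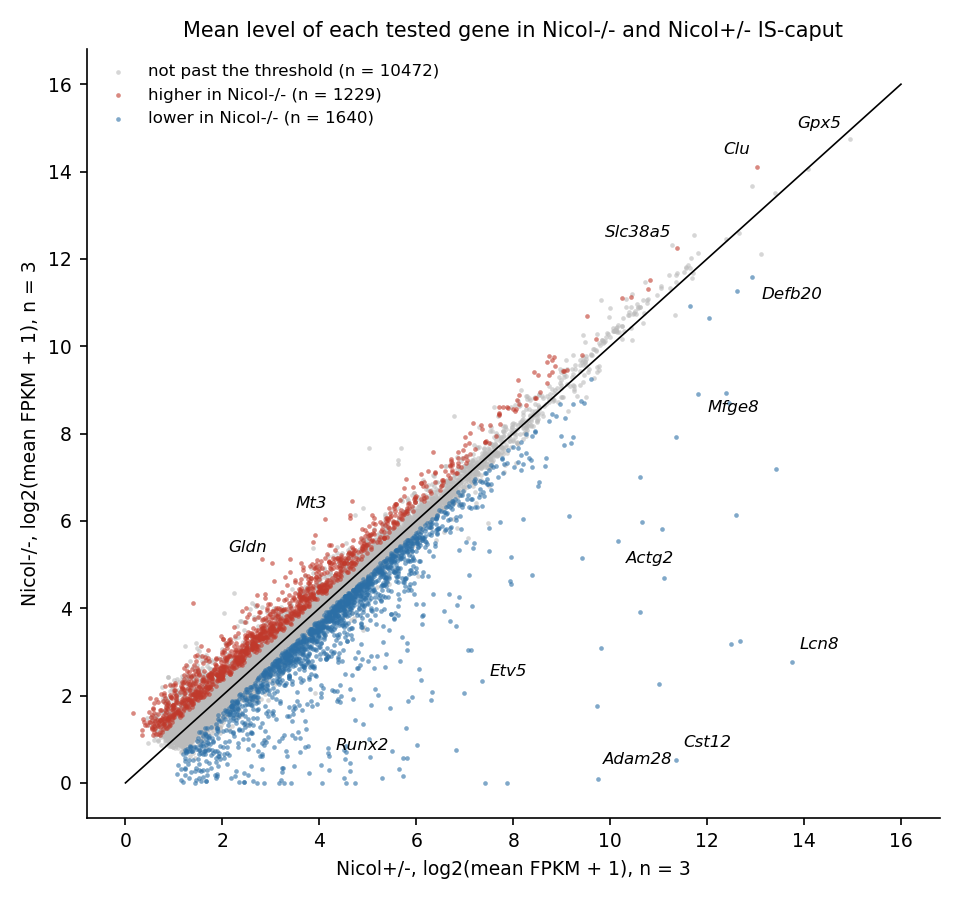
Mean FPKM of each of the 13341 tested genes in Nicol-/- (vertical axis) and Nicol+/- (horizontal axis) IS-caput, both as log2(mean FPKM + 1) over 3 libraries, with the line of equal levels. Blue points are the 1640 genes lower in Nicol-/-, red points the 1229 genes higher and grey points the 10472 genes not past the threshold, and the blue points reach far below the line over most of the range while the red points stay near it.

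The falls reached into the most abundant transcripts. Among the 108 genes with a mean of at least 1000 FPKM over the 6 libraries, 16 were lower and 2 higher by over 2-fold, whereas among the 6516 genes with a mean under 10 FPKM, 190 (2.92%) were lower and 80 higher by over 2-fold. As a description of genes chosen by this same comparison, the 1640 falls together held 7.08%, 7.04% and 7.05% of the summed FPKM of the Nicol-/- libraries, against 21.03%, 20.7% and 26.3% in the Nicol+/- libraries. The 1229 rises held 12.6%, 12.7% and 11.3% in Nicol-/-, against 7.55%, 7.26% and 5.71% in Nicol+/-. The 41 falls over 16-fold alone took 0.0816%, 0.0722% and 0.258% in Nicol-/-, against 8.28%, 8.46% and 11.45% in Nicol+/- libraries. A handful of genes thus accounted for much of the mass that was lower in Nicol-/-, and the share was higher in replicate 3 of both genotypes.

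**Figure D2:**
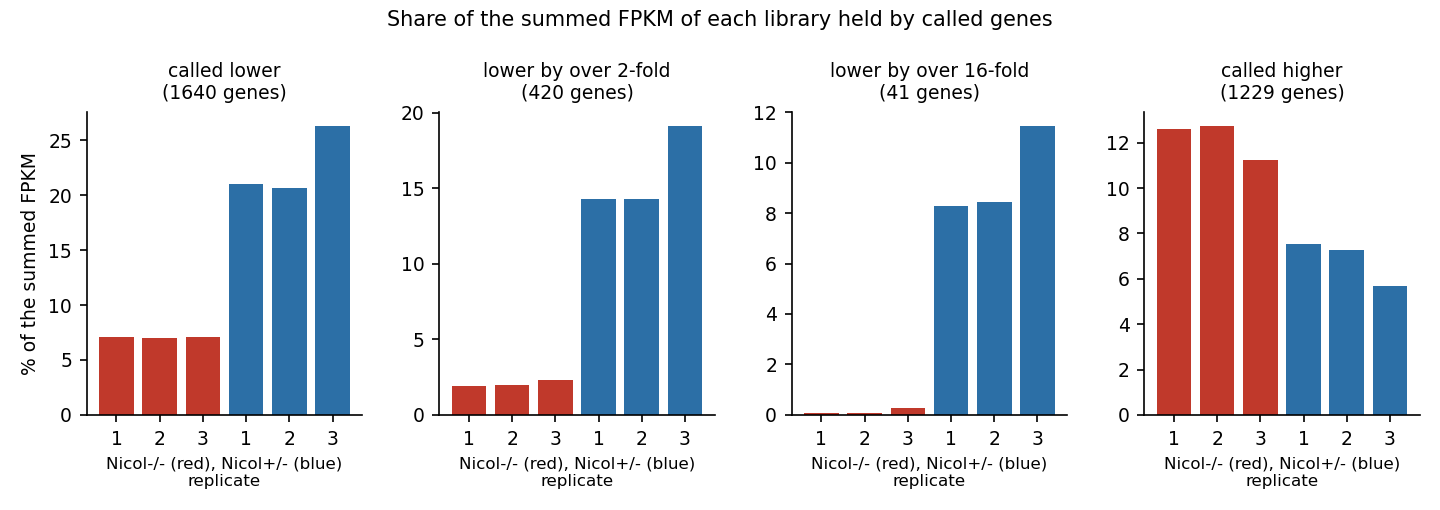
Share of the summed FPKM of all genes in a library that was held by the genes called lower, lower by over 2-fold, lower by over 16-fold and called higher, with Nicol-/- replicates in red and Nicol+/- replicates in blue. The genes lower by over 16-fold take at most 0.258% of a Nicol-/- library and at least 8.28% of a Nicol+/- library.

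A run of small neighbouring genes on chromosome 9 was among the deepest falls. 9230110F15Rik, Gm3428, Gm5916 and Gm3434 follow each other among tested genes within chr9:35838329-36135630 of mm10 (297.3 kb), and each was lower by over 4-fold. RefSeq now names 9230110F15Rik as Pate5 and the nearby Gm17677 as Pate10, members of the PATE family of small cysteine-rich proteins of the male tract. Gm17677 was listed at 0 in all 3 Nicol-/- libraries, against 118, 136 and 257 FPKM in Nicol+/- libraries. 9230110F15Rik had 0.23, 0.593 and 21.7 FPKM in Nicol-/- and 906, 694 and 1105 FPKM in Nicol+/- (log2 fold change -7.97, standard error 0.90, adjusted p = 0.000385). Gm5916 had 0.229, 0.118 and 1.75 FPKM in Nicol-/- and 88.4, 87.4 and 161 FPKM in Nicol+/- (log2 fold change -6.12, standard error 0.34, adjusted p = 3.72e-06). Gm3434 and Gm3428 were listed at 0 in every Nicol-/- library, with 35.8, 9.07 and 31.9 FPKM and 39.1, 2.19 and 5.71 FPKM in the Nicol+/- libraries, and were named after their values were seen. These genes resemble each other and reads can be split between copies, so the values of single genes are uncertain. A run of 3 genes on chromosome 2, Cst12, Cst8 and 9230104L09Rik within chr2:148789365-148850962 (61.6 kb), fell likewise, and these 2 runs held 7 of the 155 placed genes that fell by over 4-fold.

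The 250 bases before the start of 4 of these chromosome 9 genes and of Ovch2 are shown as examples from genes that were lower. They were chosen with these results known, and no window is shown for Gm3428 or the chromosome 2 run. Whether ETS factors act on these genes was not tested. PEA3-type ETS factors (ETV1, ETV4 and ETV5) are known to bind sites with a GGAA core. The capitals mark AGGAAG, searched on both strands, and the sequences are from RefSeq on GRCm38.p6, 5′ to 3′ on the strand of the gene. Gm17677 is at chr9:35740710-35740959 (plus strand), 9230110F15Rik at chr9:35844151-35844400, Gm5916 at chr9:36128780-36129029, Gm3434 at chr9:36135631-36135880 and Ovch2 at chr7:107801180-107801429 (minus strand each). For Gm5916 the start used for the window lies inside the gene as the matched GRCm38.p6 annotation places it. Of its 250 bases 66 thus belong to that annotated gene.
Gm17677: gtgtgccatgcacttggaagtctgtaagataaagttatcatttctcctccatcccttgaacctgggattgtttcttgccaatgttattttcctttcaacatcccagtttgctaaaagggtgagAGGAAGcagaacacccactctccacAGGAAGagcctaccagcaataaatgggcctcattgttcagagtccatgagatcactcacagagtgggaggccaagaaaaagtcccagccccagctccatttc
9230110F15Rik: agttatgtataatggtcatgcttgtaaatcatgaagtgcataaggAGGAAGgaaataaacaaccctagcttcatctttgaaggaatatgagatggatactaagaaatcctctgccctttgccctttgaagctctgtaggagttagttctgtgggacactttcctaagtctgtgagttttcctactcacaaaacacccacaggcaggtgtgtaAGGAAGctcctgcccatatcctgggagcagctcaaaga
Gm5916: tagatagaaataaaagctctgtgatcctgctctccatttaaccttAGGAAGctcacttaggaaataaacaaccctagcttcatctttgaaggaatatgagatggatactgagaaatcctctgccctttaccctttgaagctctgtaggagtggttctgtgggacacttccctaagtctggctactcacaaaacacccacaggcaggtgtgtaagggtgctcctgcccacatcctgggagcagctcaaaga
Gm3434: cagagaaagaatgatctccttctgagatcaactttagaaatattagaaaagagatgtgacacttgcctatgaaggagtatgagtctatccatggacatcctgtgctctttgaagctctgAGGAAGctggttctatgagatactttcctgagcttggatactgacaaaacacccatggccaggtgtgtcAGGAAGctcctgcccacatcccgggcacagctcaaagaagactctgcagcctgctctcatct
Ovch2: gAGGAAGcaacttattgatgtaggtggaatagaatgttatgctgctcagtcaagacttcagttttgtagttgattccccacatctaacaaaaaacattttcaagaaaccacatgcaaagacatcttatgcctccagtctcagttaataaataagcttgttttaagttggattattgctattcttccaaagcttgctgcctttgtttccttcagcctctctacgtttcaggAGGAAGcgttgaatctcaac
AGGAAG stands 127 and 102 bases before the start of Gm17677, 205 and 38 bases before that of 9230110F15Rik, 205 before that of Gm5916, 131 and 62 before that of Gm3434 and 249 and 20 before that of Ovch2. Aligned with gaps, the windows of 9230110F15Rik and Gm5916 were identical at 79.5% of 259 alignment columns and those of Gm5916 and Gm3434 at 60.7% of 275, against 42.9% for Gm5916 and Ovch2, so these genes are not independent instances. Among the 50 largest falls, 18 of the 40 with a promoter in the table (45.0%) held AGGAAG on either strand, among the 50 largest rises 10 of 40 did, and over all 10600 tested genes with a promoter 27.4% did. For CCGGAAGT, the longer ETS site, the shares were 0.0%, 0.0% and 5.8%, and for TGANTCA, the AP-1 site, 5.0%, 7.5% and 4.3%. No occurrence of AGGAAG can also be one of CCGGAAGT, since they differ in a base before the shared core. A match is a stretch of letters in a window and no record of binding.

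Several of the largest falls encode proteins secreted into the lumen. Lcn8 and Lcn9, lipocalins that carry small lipophilic molecules, stood at 5.09, 2.99 and 9.41 FPKM and 0.17, 0.35 and 23.8 FPKM in the Nicol-/- libraries, against 10553, 13223 and 17504 FPKM and 5026, 5153 and 7136 FPKM in the Nicol+/- libraries. Cst12, a protease inhibitor of the cystatin family, was listed at 0, 0 and 1.32 FPKM in Nicol-/- and 2148, 2099.8 and 3675 FPKM in Nicol+/- libraries (log2 fold change -10.91, standard error 0.33, adjusted p = 9.96e-08). Of 7 lipocalin genes tested 4 were lower and 0 higher, with 1 higher at an unadjusted p under 0.05 and 1 called when Nicol-/- replicate 2 was left out. Of 5 cystatin genes 3 were lower and 0 higher, also at an unadjusted p under 0.05. The counts of both families stand beside 12.3% lower and 9.21% higher over all tested genes. Lcn10 was lower too, at 149.9, 62.3 and 170 FPKM in Nicol-/- and 1356, 1482 and 1872 FPKM in Nicol+/-, and Lcn2, a lipocalin that binds bacterial siderophores, was lower by a smaller factor, at 2218, 2301 and 2852 FPKM in Nicol-/- and 5399, 6054 and 7283 FPKM in Nicol+/- (log2 fold change -1.34, standard error 0.16, adjusted p = 0.000612). Lipocalin genes thus differed among themselves, since Lcn5 did not pass (log2 fold change 0.95, adjusted p = 0.22).

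Beta-defensins, small antimicrobial peptides that coat sperm in the epididymis, showed the same unevenness. Of 30 tested, 6 were lower and 1 higher, beside 12.3% lower and 9.21% higher over all tested genes. The median log2 fold change of the 30 was 0.47. Defb48 fell most, at 9.2, 11.4 and 5.14 FPKM in Nicol-/- and 4040, 6780 and 8876 FPKM in Nicol+/- libraries (log2 fold change -9.41, standard error 0.335, adjusted p = 3.18e-07). Defb25 had 40.6, 31.4 and 363 FPKM in Nicol-/- and 8674, 11004 and 13154 FPKM in Nicol+/- libraries (log2 fold change -7.10, standard error 0.79, adjusted p = 0.000369). Defb47, singled out after its values were seen, had 221, 169 and 861 FPKM in Nicol-/-, against 5420.3, 5390.4 and 6010.1 FPKM in Nicol+/-. Defb20 had 2768, 3014 and 3431 FPKM in Nicol-/-, against 7550.3, 7021 and 8639.7 FPKM in Nicol+/- (log2 fold change -1.33, standard error 0.18, adjusted p = 0.00132). Summed over all 43 beta-defensin genes of the table, the share of library FPKM was 3.20%, 2.66% and 3.51% in Nicol-/- and 6.23%, 6.50% and 8.004% in Nicol+/-. Each Nicol-/- library was below each Nicol+/- library in that sum although most members did not pass the test. The single member called higher lost its call when Nicol-/- replicate 3 or replicate 1 or 3 of Nicol+/- was left out, while 2 were higher without Nicol-/- replicate 2 and 3 with a replicate block.

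Genes of other secreted or surface proteins were lower by large factors. Teddm2 and Teddm1a, transmembrane epididymal proteins, had 3.24, 1.06 and 2.9 FPKM and 8.56, 44.6 and 113 FPKM in Nicol-/-, against 613, 403 and 1543 FPKM and 1606, 1891 and 2945 FPKM in Nicol+/-. In the GENCODE annotation these genes overlap by 1317 bases on opposite strands. In the matched GRCm38.p6 annotation they lie apart, at chr1:153849542-153851195 and chr1:153891646-153893060. Whether the counting used strand is not given in the sources used for this report, so whether these genes share reads is not known. Rnase10, of the RNase A family, had 8.66, 7.91 and 57.5 FPKM in Nicol-/- and 1628, 1746 and 3216 FPKM in Nicol+/- (log2 fold change -6.93, standard error 0.63, adjusted p = 9.97e-05). It was the only called fall among 9 tested genes of its family (11.1%, beside 12.3% over all tested genes). The 2 rises of the family were lost in the fits that left out Nicol-/- replicate 1, Nicol-/- replicate 2 or Nicol+/- replicate 3. Ly6g5b and Ly6g5c, small proteins of the LY6 and uPAR family, had 70.2, 52.5 and 63.3 FPKM and 226, 122 and 373 FPKM in Nicol-/-, against 1522, 1574 and 1762 FPKM and 1848, 2196 and 3824 FPKM in Nicol+/-. Mfge8, a secreted protein that bridges phosphatidylserine and integrins, had 420.2, 459 and 547 FPKM in Nicol-/-, against 3207, 2987 and 4524 FPKM in Nicol+/- (log2 fold change -2.89, standard error 0.20, adjusted p = 2.01e-05). Bpi, which binds bacterial lipopolysaccharide, had 4.95, 4.05 and 12.6 FPKM in Nicol-/- and 118, 124 and 176 FPKM in Nicol+/-. For each of these genes the groups did not overlap, as for 20.6% of all tested genes with Nicol-/- below. Ly6g5b, Ly6g5c, Mfge8 and Bpi were chosen after their values were seen.

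The remnant of the largest falls was most often highest in Nicol-/- replicate 3. That library was also the deepest of the mutants, at 15153124 estimated reads against 9087973 and 8721248. The part of depth in the remnant was not tested. Expressed as a share of the Nicol+/- mean, the 25 largest falls stood at a median of 0.2254% in Nicol-/- replicate 1, 0.1245% in replicate 2 and 0.6714% in replicate 3, and replicate 3 was the highest mutant library for 17 of the 25. Lcn9 is an example, at 0.17, 0.35 and 23.8 FPKM in Nicol-/- replicates 1 to 3. Gm4846 was an exception, with 40.4, 0.428 and 1.02 FPKM in Nicol-/- and 1352, 1211 and 2160.2 FPKM in Nicol+/-, and thus highest in mutant replicate 1. Nicol+/- replicate 3 was the highest control for all 25. These 25 genes took 0.0212%, 0.0234% and 0.110% of the summed FPKM of the Nicol-/- libraries, against 6.90%, 7.22% and 9.97% of the Nicol+/- libraries.

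**Figure D3:**
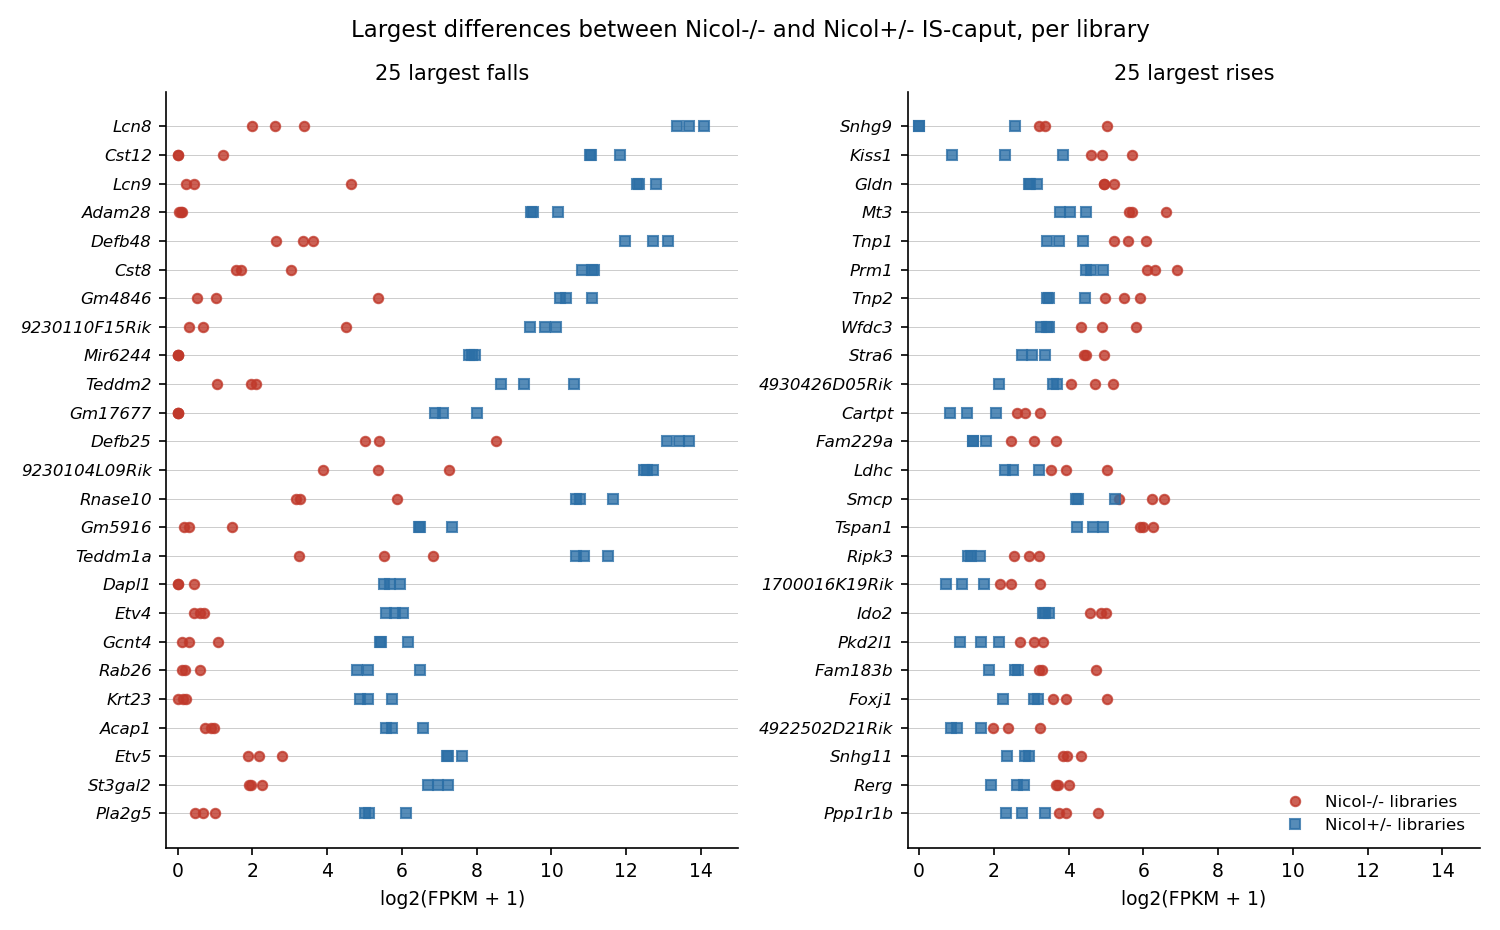
log2(FPKM + 1) of the 25 largest falls (left) and 25 largest rises (right) among called genes with a mean of at least 5 FPKM in either genotype and no overlap between genotypes, with 1 red circle per Nicol-/- library and 1 blue square per Nicol+/- library. The falls reach a log2 fold change of -11.06 (Lcn8), while the rises reach 3.02 (Snhg9), and single mutant libraries stand apart for Lcn9, Gm4846 and 9230110F15Rik.

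Several of the most abundant transcripts did not follow the falls. Gpx5 did not pass (log2 fold change -0.18, adjusted p = 0.68), nor did Spag11b, which encodes a beta-defensin-like protein, at 14814, 16400.5 and 20246 FPKM in Nicol-/- and 12191, 18397 and 21477 FPKM in Nicol+/- (log2 fold change 0.01, adjusted p = 0.98). Clu, the secreted chaperone clusterin, was higher at 17766, 20568 and 14385 FPKM in Nicol-/-, against 9776, 10123 and 5155 FPKM in Nicol+/- (log2 fold change 1.12, standard error 0.30, adjusted p = 0.0278). Its call was lost with a replicate block (adjusted p = 0.0866), and when Nicol+/- replicate 3 (0.0587), Nicol-/- replicate 1 (0.0722) or Nicol-/- replicate 2 (0.0753) was left out. Slc38a5, an amino acid transporter of the sodium-coupled neutral type, had 5107, 4471 and 5067 FPKM in Nicol-/-, against 2283, 2826 and 2919 FPKM in Nicol+/- (log2 fold change 0.87, standard error 0.15, adjusted p = 0.00396), and was not called with a replicate block (adjusted p = 0.061). These 4 transcripts were abundant in both genotypes.

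42 genes were on in the controls and all but silent in the mutants. Each had less than 1 FPKM in every Nicol-/- library and a mean of at least 5 FPKM in Nicol+/-, and 0 genes showed the opposite pattern. The 10 tested genes listed at 0 in all Nicol-/- libraries included receptors and a neuropeptide gene. Ntsr1, the high-affinity receptor for neurotensin, was listed at 0 in Nicol-/-, against 17.6, 17.8 and 31.5 FPKM in Nicol+/-. Gria2, a subunit of AMPA-type glutamate receptors, was listed at 0 in Nicol-/- and at 7.48, 8.47 and 12.97 FPKM in Nicol+/-. Vip, which encodes vasoactive intestinal peptide, was listed at 0, 0 and 0.143 FPKM in Nicol-/- and 6.21, 3.44 and 15.02 FPKM in Nicol+/-. Tac1, the precursor of substance P, was listed at 0 in Nicol-/- as well, but at only 1.85, 1.12 and 2.14 FPKM in Nicol+/-. Its level in the controls was thus low, and it is not among the 42. Ntsr1, Gria2, Vip and Tac1, like the genes of the next paragraph up to Enpp2, were chosen after their values were seen.

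Some large falls were in genes best known from blood cells. Zap70, the kinase that acts at the T-cell receptor, had 0.104, 0.193 and 0.385 FPKM in Nicol-/- and 15.7, 18.5 and 17.6 FPKM in Nicol+/- (log2 fold change -3.90, standard error 0.16, adjusted p = 7.46e-07). Lat, the membrane adaptor that ZAP-70 phosphorylates in T cells, had 0.936, 0.642 and 0.428 FPKM in Nicol-/- and 8.23, 6.69 and 11.9 FPKM in Nicol+/-. Inpp5d, the inositol phosphatase SHIP1, had 2.96, 1.83 and 3.25 FPKM in Nicol-/- and 49.95, 45.5 and 71.5 FPKM in Nicol+/- (log2 fold change -3.94, standard error 0.20, adjusted p = 2.30e-06). Klrb1c, the natural killer receptor NK1.1, had 2.99, 0.993 and 4.18 FPKM in Nicol-/- and 67.4, 51.5 and 116 FPKM in Nicol+/-. Other such genes, among them Ptpn6 and Csf1r, fell little or did not pass, and the defining T lymphocyte marker was low in both genotypes. Cd3e was at 0.607, 0.268 and 0.358 FPKM in Nicol-/- and 0.763, 0.0499 and 0.212 FPKM in Nicol+/- libraries, and only 2 of 14 lymphocyte markers passed the filter, of which 0 were called, also at an unadjusted p under 0.05. The summed FPKM of the list was 4.59 to 8.22 in Nicol-/- and 3.14 to 5.25 in Nicol+/-. Shc4, an adaptor of receptor tyrosine kinases that overlaps Eid1 by 1691 bases on the opposite strand, had 0.736, 0.308 and 0.325 FPKM in Nicol-/- and 19.8, 18.9 and 27.9 FPKM in Nicol+/-. Enpp2, the secreted lysophospholipase autotaxin that makes lysophosphatidic acid, had 8.13, 6.76 and 6.95 FPKM in Nicol-/- and 127, 117 and 154 FPKM in Nicol+/- (log2 fold change -4.01, standard error 0.11, adjusted p = 7.29e-08).

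A short feature on chromosome 9, Mir6244, was listed at 0 in each Nicol-/- library, against 223, 233 and 248 FPKM in the Nicol+/- libraries. Its hairpin of 117 bases lies at chr9:52115623-52115739 inside Zc3h12c, which is on the opposite strand and was at 1.56 FPKM in Nicol-/- and 1.57 FPKM in Nicol+/-. Poly(A)-selected libraries do not measure mature miRNAs, and few reads give a high FPKM over so short a feature, so the values show reads at this locus and no level of the miRNA. Its mature sequence from RefSeq is shown because it is the only one of 11 tested miRNA features that was called, with the seed (bases 2 to 8) in capitals.
mmu-miR-6244: gGGGGCGUggaauuaucgggu

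Genes that ERK signalling induces fell together, while 2 genes of the cascade itself passed the test. Of 20 genes of the RAS-ERK cascade, from RAS proteins to ERK, 2 were lower and 0 higher (7 and 2 when p under 0.05 was taken unadjusted, and 1 higher when Nicol-/- replicate 3 was left out) with a median log2 fold change of -0.07. Of 18 ERK-induced feedback inhibitors and ETS targets, 15 were lower and 1 higher with a median of -1.22, against shares of 12.3% lower and 9.21% higher over all tested genes. The single rise was lost with a replicate block and when Nicol-/- replicate 1 or Nicol+/- replicate 2 was left out. The feedback list includes dual-specificity phosphatases (DUSPs), which switch off MAP kinases. Dusp6, specific for ERK, had 5.38, 5.58 and 6.67 FPKM in Nicol-/- and 43.9, 43.8 and 62.3 FPKM in Nicol+/- (log2 fold change -2.88, standard error 0.14, adjusted p = 1.46e-06). Dusp4 had 0.862, 1.73 and 1.44 FPKM in Nicol-/- and 8.95, 11.3 and 16.2 FPKM in Nicol+/- (log2 fold change -2.47, standard error 0.25, adjusted p = 0.000189). Dusp5 had 3.16, 2.44 and 4.25 FPKM in Nicol-/- and 14.5, 15.9 and 25.8 FPKM in Nicol+/- (log2 fold change -2.18, standard error 0.22, adjusted p = 0.000211). Across the DUSP family, 8 of 18 tested genes were lower and 0 higher (1 was higher at an unadjusted p under 0.05), with Dusp15 lower as well at 1.3, 4.54 and 2.09 FPKM in Nicol-/- and 15.5, 26.2 and 17.2 FPKM in Nicol+/-.

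Other brakes of receptor tyrosine kinase signalling changed less. Spry1, a Sprouty inhibitor, had 14.7, 12.4 and 13 FPKM in Nicol-/- and 46.4, 44.3 and 55.2 FPKM in Nicol+/-. Phlda1, an ERK-responsive gene, had 26.5, 22.9 and 19.7 FPKM in Nicol-/- and 55.5, 61.5 and 65.1 FPKM in Nicol+/-. Spry1 had a log2 fold change of -1.79 and Phlda1 of -1.37, with a standard error of 0.11 each. The called falls within the cascade were Rasa1, the RAS-inactivating protein p120 RasGAP, at 11.7, 12.1 and 8.94 FPKM in Nicol-/- and 28.6, 22.5 and 33.7 FPKM in Nicol+/-, and Shc1, an adaptor that recruits GRB2, at 36.7, 31.7 and 39.2 FPKM in Nicol-/- and 52.3, 50.6 and 53.3 FPKM in Nicol+/-. Ccnd1, the cell cycle regulator cyclin D1, had 23.2, 22.8 and 25.4 FPKM in Nicol-/- and 42.1, 42.7 and 56.1 FPKM in Nicol+/- (log2 fold change -0.94, standard error 0.12, adjusted p = 0.000779). The replicates of each gene lay within a narrow band and the genotypes did not overlap, as for 20.6% of all tested genes with Nicol-/- below.

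Ligands and receptors of other pathways were lower one by one rather than as groups. Hgfac, the protease that activates hepatocyte growth factor, had 5.28, 8.96 and 10.5 FPKM in Nicol-/- and 47.2, 51.1 and 67.3 FPKM in Nicol+/- (log2 fold change -2.63, standard error 0.27, adjusted p = 0.000215). Met, the receptor of that factor, had 1.83, 2.34 and 1.23 FPKM in Nicol-/- and 5.37, 5.71 and 5.56 FPKM in Nicol+/-, and St14, the protease matriptase, 49.4, 55.3 and 52.9 FPKM in Nicol-/- and 72.1, 81.7 and 84.9 FPKM in Nicol+/-. These 3 were the called members among 9 tested genes of that pathway. In the TGF-beta and BMP list, 4 of 19 genes (21.1%) were lower and 3 (15.8%) higher, beside 12.3% and 9.21% over all tested genes. Of the rises, 1 was left with a replicate block or without Nicol-/- replicate 1. Bmp7, a BMP ligand, had 5, 4.45 and 6.05 FPKM in Nicol-/- and 20.97, 25.6 and 33.2 FPKM in Nicol+/- (log2 fold change -2.15, standard error 0.16, adjusted p = 2.59e-05), and Inhbb, an activin subunit, 13.6, 9.59 and 9.64 FPKM in Nicol-/- and 24.6, 27.1 and 32.5 FPKM in Nicol+/-. Lef1, the transcription factor at the end of the WNT pathway, had 3.57, 3.99 and 2.66 FPKM in Nicol-/- and 23.3, 25.2 and 22.96 FPKM in Nicol+/- (log2 fold change -2.50, standard error 0.13, adjusted p = 1.89e-06) and was the only fall among 12 tested WNT targets and inhibitors, of which 4 were higher. Within androgen and oestrogen action, Srd5a1, the steroid 5-alpha-reductase, had 2.21, 1.92 and 3.11 FPKM in Nicol-/- and 11.2, 10.7 and 18.1 FPKM in Nicol+/-, and Gper1, a membrane oestrogen receptor, 1.02, 0.904 and 1.2 FPKM in Nicol-/- and 6.7, 7.94 and 10.5 FPKM in Nicol+/-. Srd5a1 overlaps Nsun2 by 37994 bases on the opposite strand.

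Etv4, Etv5 and Runx2 had the largest falls among the transcription factors described here. Etv4 and Etv5, PEA3-type ETS factors downstream of ERK, had 0.5, 0.36 and 0.618 FPKM and 2.7, 3.54 and 5.95 FPKM in Nicol-/-, against 46.9, 54.9 and 64.02 FPKM and 148, 149.7 and 195 FPKM in Nicol+/-. Of 20 ETS genes, 6 were lower and 3 higher, beside 12.3% lower and 9.21% higher over all tested genes. The 3 ETS rises were lost with a replicate block or without Nicol-/- replicate 1. When replicate 1 or 3 of Nicol+/- was left out, 1 ETS rise was called. Besides Etv4 and Etv5 the falls were Etv1 at 6.64, 4.7 and 4.62 FPKM in Nicol-/- and 13.6, 10.5 and 14.9 FPKM in Nicol+/-, Erf, an ETS repressor that ERK inactivates, at 15.9, 15.9 and 19.96 FPKM in Nicol-/- and 31.7, 36.9 and 44.8 FPKM in Nicol+/-, Ets1 and Etv6. Runx2, the master factor of bone formation, had 0.408, 0.233 and 0.455 FPKM in Nicol-/-, against 22.4, 19.1 and 30.3 FPKM in Nicol+/- (log2 fold change -4.17, standard error 0.16, adjusted p = 4.60e-07), and was named after its values were seen. It overlaps Supt3 by 37646 bases on the opposite strand, and Supt3 was at 9.41 FPKM in Nicol-/- and 18.6 FPKM in Nicol+/-, so reads of the 2 genes may be mixed.

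Smaller falls covered other regulators of the epithelium. Ppard, a nuclear receptor for fatty acids, had 8.08, 9.7 and 8.71 FPKM in Nicol-/- and 22.2, 23.2 and 28.1 FPKM in Nicol+/- (log2 fold change -1.37, standard error 0.10, adjusted p = 3.51e-05). Sox13 had 11.2, 11.8 and 13.6 FPKM in Nicol-/- and 28.7, 32.4 and 35.4 FPKM in Nicol+/- (log2 fold change -1.33, standard error 0.10, adjusted p = 3.66e-05), and Cebpb, a leucine zipper factor, 6.02, 8.04 and 6.37 FPKM in Nicol-/- and 16, 22.5 and 22.5 FPKM in Nicol+/- (log2 fold change -1.44, standard error 0.14, adjusted p = 0.000194). Pax8, a factor of the Wolffian duct, and Sox9 were lower by less than 2-fold, Pax8 at 55.9, 60.4 and 56.7 FPKM in Nicol-/- and 87.7, 94.03 and 93.1 FPKM in Nicol+/-. Esrrb, an orphan nuclear receptor, was among the rises, at 3.67, 5.01 and 4.6 FPKM in Nicol-/- and 0.819, 2.1 and 1.45 FPKM in Nicol+/- (log2 fold change 1.17, standard error 0.19, adjusted p = 0.00337). Of 311 tested genes named as zinc finger proteins, 9 (2.89%) were lower and 12 (3.86%) higher, beside 12.3% and 9.21% over all tested genes. With a replicate block 2 were lower and 4 higher, and leaving out Nicol+/- replicate 3 gave 1 and 6, Nicol-/- replicate 1 gave 3 and 7, and Nicol+/- replicate 2 gave 3 lower.

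Hox genes, which set position along the body and the male duct, moved in both directions. Of 26 tested, 5 (19.2%) were lower and 6 (23.1%) higher, beside 12.3% and 9.21% over all tested genes. With a replicate block 3 were lower and 6 higher. The 5 falls were members of the B cluster and the 6 rises members of the A and C clusters. Hoxb1 had 0, 0 and 0.335 FPKM in Nicol-/- and 2.69, 4.68 and 4.11 FPKM in Nicol+/- (log2 fold change -2.11, standard error 0.19, adjusted p = 8.90e-05), and Hoxb7 72.3, 82.9 and 82.1 FPKM in Nicol-/- and 119, 160.4 and 159.7 FPKM in Nicol+/-. Hoxb6 had 120, 122 and 142 FPKM in Nicol-/- and 172, 208 and 235 FPKM in Nicol+/-. Among the rises, Hoxa5 had 18.6, 13 and 17.04 FPKM in Nicol-/- and 8.62, 6.01 and 6.12 FPKM in Nicol+/- (log2 fold change 1.12, standard error 0.15, adjusted p = 0.00126), Hoxc8 26.1, 19.6 and 21.1 FPKM in Nicol-/- and 14.98, 12.4 and 11.7 FPKM in Nicol+/-, and Hoxa4 and Hoxc4 were higher by 0.72 and 0.80 on the log2 scale. Hoxa4 and Hoxa5 lie within the annotated span of Hoxa3 (7.51 FPKM in Nicol-/- and 6.57 FPKM in Nicol+/-), so their reads are not fully separate.

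Glycosyltransferases formed a group with deep falls. The list holds 40 tested genes of the families that add N-acetylgalactosamine, N-acetylglucosamine, galactose, fucose or sialic acid to glycans. Of these, 14 were lower, 9 of them by over 2-fold, and 5 were higher. The shares over all tested genes were 12.3% lower and 9.21% higher. Of the 5 rises in the list, 3 were called without Nicol-/- replicate 1 and 2 without Nicol+/- replicate 3. St3gal2, which caps O-glycans and glycolipids with sialic acid, had 2.76, 2.87 and 3.81 FPKM in Nicol-/- and 103, 124 and 150.2 FPKM in Nicol+/- (log2 fold change -4.92, standard error 0.15, adjusted p = 9.96e-08). Gcnt4, which branches O-glycans and stands outside that list, had 0.0869, 0.224 and 1.11 FPKM in Nicol-/- and 42.3, 41.6 and 71.2 FPKM in Nicol+/- (log2 fold change -5.18, standard error 0.27, adjusted p = 2.27e-06). St6galnac2, a further sialyltransferase of O-glycans, had 10.1, 14.8 and 22.4 FPKM in Nicol-/- and 103, 107 and 129 FPKM in Nicol+/-. Galnt10, which starts O-glycans, had 6.02, 6.2 and 7.08 FPKM in Nicol-/- and 31.5, 33.3 and 41.8 FPKM in Nicol+/- (log2 fold change -2.29, standard error 0.11, adjusted p = 1.56e-06), and Fut8, which adds the core fucose of N-glycans, 6.73, 7.28 and 6.91 FPKM in Nicol-/- and 17.4, 18.2 and 20.5 FPKM in Nicol+/-. The heparan sulfate 3-O-sulfotransferases Hs3st6 and Hs3st3a1, chosen after their values were seen, were under 1 FPKM in each Nicol-/- library and at 15.4, 13.3 and 22.5 FPKM and 7.27, 8.55 and 9.43 FPKM in the Nicol+/- libraries.

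Transporters moved in both directions. Of 236 tested solute carriers, 45 (19.1%) were lower and 30 (12.7%) higher, beside 12.3% and 9.21% over all tested genes, with 34 lower and 21 higher under a replicate block, 18 higher when Nicol-/- replicate 1 was left out and 16 when Nicol+/- replicate 3 was. Slco4c1, an organic anion carrier, had 0.486, 1.35 and 1.23 FPKM in Nicol-/- and 26.6, 22.2 and 46.1 FPKM in Nicol+/- (log2 fold change -3.97, standard error 0.26, adjusted p = 1.39e-05). Slc45a3, named prostein in the prostate, had 2.05, 2.47 and 2.37 FPKM in Nicol-/- and 31.6, 39.4 and 57.7 FPKM in Nicol+/- (log2 fold change -3.69, standard error 0.20, adjusted p = 2.69e-06). Slc1a1, a glutamate and cysteine carrier, had 18.99, 23.4 and 28.2 FPKM in Nicol-/- and 195, 215 and 323 FPKM in Nicol+/- (log2 fold change -3.30, standard error 0.33, adjusted p = 0.000191). Amino acid exchangers moved in opposite directions, with Slc7a5, the large neutral amino acid carrier LAT1, at 267, 217 and 247 FPKM in Nicol-/- and 449, 499 and 581 FPKM in Nicol+/-, and Slc16a10, a carrier of aromatic amino acids, at 165, 135 and 118 FPKM in Nicol-/- and 66.4, 85.4 and 73.5 FPKM in Nicol+/-. Of 28 ABC transporters 9 were lower and 3 higher, with 5 lower and 1 higher under a replicate block and 5 lower without Nicol+/- replicate 3. Abcb9, a peptide transporter of lysosomes, had 2.68, 2.06 and 2.58 FPKM in Nicol-/- and 28.1, 28.8 and 41.02 FPKM in Nicol+/- (log2 fold change -3.27, standard error 0.15, adjusted p = 1.32e-06), and Abcc4, an exporter of cyclic nucleotides and prostanoids, 2.29, 2.31 and 3.75 FPKM in Nicol-/- and 17.9, 17.1 and 24.7 FPKM in Nicol+/-.

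Several lipid synthesis genes were lower. Of 22 genes of cholesterol synthesis and uptake 11 were lower (median log2 fold change -0.50), and of 14 of fatty acid synthesis 6 were lower (median -0.27). The share lower over all tested genes was 12.3%. In both lists 0 genes were higher, also at an unadjusted p under 0.05, with 1 fatty acid gene called when Nicol-/- replicate 3 was left out. The cholesterol count rested on single libraries, being 5 when Nicol-/- replicate 1 or Nicol+/- replicate 3 was left out and 6 when Nicol-/- replicate 2 was. Dhcr7, the last enzyme of cholesterol synthesis, had 0.815, 0.42 and 1.63 FPKM in Nicol-/- and 7.48, 6.32 and 9.99 FPKM in Nicol+/- (log2 fold change -2.22, standard error 0.22, adjusted p = 0.000196). Lss, lanosterol synthase, had 6.48, 5.75 and 6.16 FPKM in Nicol-/- and 14.3, 12.9 and 18.2 FPKM in Nicol+/-. Scd1 and Scd2, the desaturases that make oleic acid, are similar in sequence and may share reads. Scd1 had 17.3, 23.9 and 15.8 FPKM in Nicol-/- and 73.6, 69.9 and 97.4 FPKM in Nicol+/- (log2 fold change -2.03, standard error 0.17, adjusted p = 5.92e-05), and Scd2 155, 196 and 147 FPKM in Nicol-/- and 321, 325 and 345 FPKM in Nicol+/- (adjusted p = 0.000489). Elovl6, an elongase, had 35.8, 33.7 and 29.3 FPKM in Nicol-/- and 59.3, 63.3 and 74.99 FPKM in Nicol+/-. Fasn, fatty acid synthase, had 54.3, 65.98 and 47.03 FPKM in Nicol-/- and 61.7, 70.8 and 57.5 FPKM in Nicol+/- and did not pass (log2 fold change -0.19, adjusted p = 0.37). Pla2g5, a secreted phospholipase A2, was nearly silent at 0.602, 0.372 and 0.992 FPKM in Nicol-/-, against 33.7, 31.3 and 68.6 FPKM in Nicol+/-.

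Some genes of the secretory machinery were lower by small factors. Of 34 genes of ER translocation and ER to Golgi transport, 8 (23.5%) were lower and 0 higher, also at an unadjusted p under 0.05. The shares over all tested genes were 12.3% lower and 9.21% higher. This list had a median log2 fold change of -0.23, and 15 of its genes were lower without Nicol+/- replicate 1. Sec31a, a COPII coat subunit, had 92.5, 88.2 and 86.8 FPKM in Nicol-/- and 122, 132 and 141 FPKM in Nicol+/- (log2 fold change -0.55, standard error 0.08, adjusted p = 0.00132), and Arcn1, a COPI coat subunit, 57.6, 56.5 and 52.3 FPKM in Nicol-/- and 75.2, 83.8 and 96.4 FPKM in Nicol+/-. ER chaperones and unfolded protein response genes counted 6 lower (27.3%) and 0 higher of 22, the 0 holding at an unadjusted p under 0.05. There were 2 lower with a replicate block or without Nicol+/- replicate 3, and 13 without Nicol+/- replicate 1. Dnajc3, a co-chaperone that inhibits PERK, had 51.8, 56.4 and 47.7 FPKM in Nicol-/- and 73.5, 84.8 and 96.6 FPKM in Nicol+/-. Hspa5, the chaperone BiP, had 730.3, 688 and 672 FPKM in Nicol-/- and 709.8, 938 and 959 FPKM in Nicol+/-, and with a control library within the range of the mutants it did not pass (adjusted p = 0.12). Respiratory chain and ATP synthase subunits gave 1 lower and 1 higher of 78, and 3 lower at most and 2 higher at most with a library left out. Cytosolic ribosomal proteins gave 1 lower and 8 higher of 81. Their rises numbered 1 with a replicate block and when a Nicol-/- library or Nicol+/- replicate 3 was left out, 3 without Nicol+/- replicate 1 and 13 without Nicol+/- replicate 2.

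**Figure D4:**
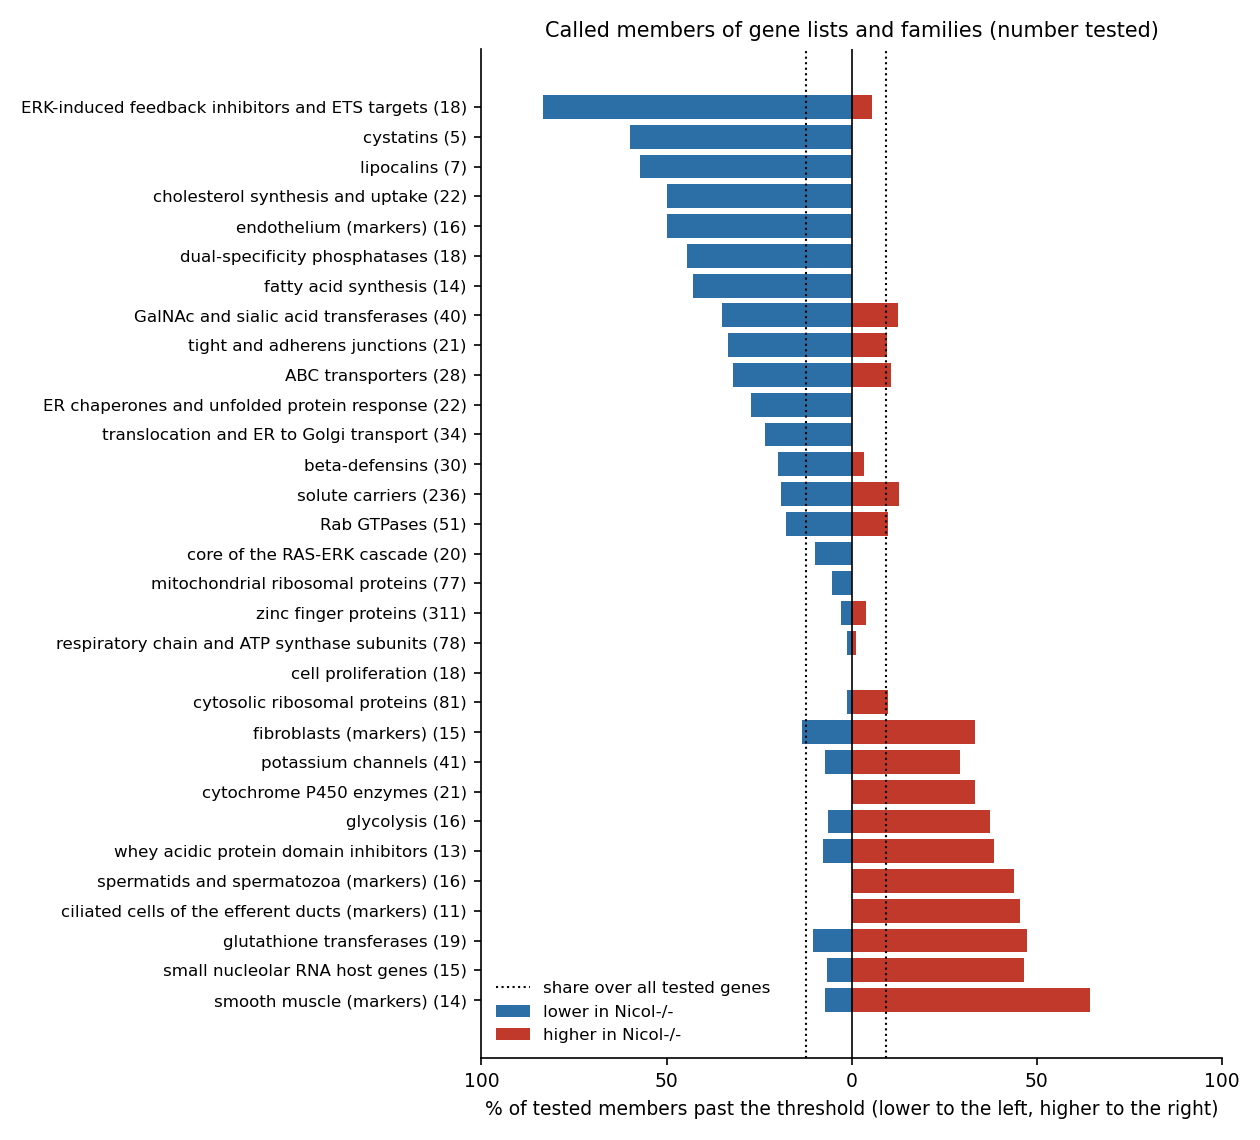
Percent of the tested members of each gene list or family that were lower (blue, to the left) or higher (red, to the right) in Nicol-/-, with the number tested in parentheses and dotted lines at the shares over all tested genes, 12.3% lower and 9.21% higher. ERK-induced feedback genes reach 83.3% lower and smooth muscle markers 64.3% higher, while zinc finger proteins and respiratory chain subunits stay below both lines.

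A few genes moved far more than the rest of their families. Actg2, the gamma-2 actin of enteric smooth muscle, had 46.3, 44.3 and 45.3 FPKM in Nicol-/- and 1037, 1084 and 1329 FPKM in Nicol+/- (log2 fold change -4.63, standard error 0.12, adjusted p = 4.80e-08), while of the other 13 tested smooth muscle markers 9 were higher. Rpl3l, a muscle paralog of the ribosomal protein gene Rpl3, had 1.92, 1.41 and 0.863 FPKM in Nicol-/- and 35.4, 36.1 and 90.4 FPKM in Nicol+/- (log2 fold change -4.40, standard error 0.45, adjusted p = 0.000223) and was the only fall among the cytosolic ribosomal proteins. Mrpl37, of the mitochondrial ribosome, had 23.4, 25.6 and 29.02 FPKM in Nicol-/- and 281, 297 and 421 FPKM in Nicol+/- (log2 fold change -3.61, standard error 0.14, adjusted p = 5.87e-07), while of the 77 genes of that ribosome 4 were lower in all. That count was 1 when Nicol-/- replicate 2 or replicate 2 or 3 of Nicol+/- was left out, 2 without Nicol-/- replicate 1 or with a replicate block and 9 without Nicol-/- replicate 3. Each of these 3 single genes was more than 10-fold lower.

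Single genes of immune, matrix and membrane families were also far lower. H2-DMb2, which loads peptides onto MHC class II, had 1.67, 1.53 and 5.46 FPKM in Nicol-/- and 52.4, 54.9 and 70.9 FPKM in Nicol+/- (log2 fold change -4.09, standard error 0.38, adjusted p = 0.000126), and 18 of 20 tested MHC genes did not pass. The 2 falls of the family became 4 with a replicate block or without Nicol+/- replicate 1 and 1 without Nicol-/- replicate 1 or Nicol+/- replicate 3. P4ha2, a collagen prolyl hydroxylase named after its values were seen, had 3.64, 2.59 and 3.47 FPKM in Nicol-/- and 76.4, 67.5 and 94.4 FPKM in Nicol+/- (log2 fold change -4.24, standard error 0.17, adjusted p = 5.14e-07). Rab26, a GTPase of regulated secretion, had 0.521, 0.0895 and 0.154 FPKM in Nicol-/- and 26.8, 33.2 and 87.98 FPKM in Nicol+/- (log2 fold change -5.14, standard error 0.37, adjusted p = 2.24e-05) and was the only one of 51 tested Rab genes lower by over 2-fold. Rab26 overlaps Traf7 and an antisense transcript, neither of which passed the test (a mean of 39.8 FPKM in Nicol-/- and 40.5 FPKM in Nicol+/- for Traf7, and of 79.9 FPKM in Nicol-/- and 66.3 FPKM in Nicol+/- for the antisense Rab26os). Krt23, a keratin, had 0.16, 0 and 0.0942 FPKM in Nicol-/- and 32.9, 28.7 and 52.3 FPKM in Nicol+/-, and was 1 of 3 falls among 11 tested keratins, of which 1 was higher. Kcnj11, the pore of ATP-sensitive potassium channels, had 0.329, 0.616 and 0.89 FPKM in Nicol-/- and 16.7, 15.6 and 18.7 FPKM in Nicol+/- (log2 fold change -3.49, standard error 0.21, adjusted p = 6.16e-06). Of 41 tested potassium channel genes, however, 12 (29.3%) were higher and 3 (7.32%) lower, beside 9.21% and 12.3% over all tested genes. The median log2 fold change of the 41 was 0.41, and 6 were higher without Nicol+/- replicate 3. Kcnh2, the ERG channel, had 13.6, 13.9 and 14.6 FPKM in Nicol-/- and 6.71, 6.78 and 4.09 FPKM in Nicol+/-.

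Genes that rose did so by small factors. Gldn, which encodes the adhesion protein gliomedin, had 35.8, 29.6 and 30 FPKM in Nicol-/- and 6.67, 6.87 and 7.84 FPKM in Nicol+/- (log2 fold change 2.01, standard error 0.13, adjusted p = 1.15e-05), and Mt3, a metallothionein, 50.8, 47.6 and 96.8 FPKM in Nicol-/- and 15.5, 20.9 and 12.6 FPKM in Nicol+/- (log2 fold change 1.88, standard error 0.26, adjusted p = 0.00142). Stra6, the receptor for retinol-binding protein, had 29.9, 20.1 and 20.9 FPKM in Nicol-/- and 9.26, 7.13 and 5.76 FPKM in Nicol+/- (log2 fold change 1.55, standard error 0.23, adjusted p = 0.00191). Ido2, which breaks down tryptophan, had 31.01, 22.7 and 28.1 FPKM in Nicol-/- and 9.32, 10.1 and 8.98 FPKM in Nicol+/- (log2 fold change 1.42, standard error 0.15, adjusted p = 0.000229). Tspan1, a tetraspanin, had 59.4, 75.5 and 62.4 FPKM in Nicol-/- and 29.4, 24.3 and 17.6 FPKM in Nicol+/- (log2 fold change 1.45, standard error 0.17, adjusted p = 0.000489), and Ripk3, a kinase of necroptosis, 6.67, 4.77 and 8.19 FPKM in Nicol-/- and 1.6, 2.08 and 1.48 FPKM in Nicol+/-. These 6 kept their calls whichever library was left out. The nominally largest rises did not. Snhg9, a small nucleolar RNA host gene that overlaps Rps2 by 435 bases, had 31.9, 8.21 and 9.39 FPKM in Nicol-/- and 0, 0 and 4.88 FPKM in Nicol+/-, and lost its call when Nicol+/- replicate 1 (adjusted p = 0.087), Nicol+/- replicate 2 (0.0889) or Nicol-/- replicate 1 (0.0908) was left out. Kiss1, the precursor of kisspeptin, which overlaps Golt1a by 1152 bases, had 50.5, 23.3 and 28.8 FPKM in Nicol-/- and 0.828, 13.4 and 3.92 FPKM in Nicol+/-, and kept its call only when Nicol+/- replicate 2 was the Nicol library left out (adjusted p of 0.0687 to 0.126 for the other 5), and lost it without Ros1-/- replicate 1 (0.0667).

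Several detoxifying and glycolytic enzymes were higher. Of 19 tested glutathione transferases 9 (47.4%) were higher and 2 (10.5%) lower, beside 9.21% and 12.3% over all tested genes. The median log2 fold change of the 19 was 0.28. Gstm5 had 229.6, 223 and 274 FPKM in Nicol-/- and 130.1, 145 and 109 FPKM in Nicol+/- (log2 fold change 0.92, standard error 0.12, adjusted p = 0.000915), and Gsta3 49.3, 47.96 and 46.6 FPKM in Nicol-/- and 31.3, 34.6 and 29.4 FPKM in Nicol+/- (log2 fold change 0.58, standard error 0.09, adjusted p = 0.00331). Transferases of a class are similar in sequence and may share reads. The 2 falls rested on single libraries, with 0 left when replicate 1 or 2 of Nicol-/- or replicate 3 of Nicol+/- was left out and 1 in the fits without replicate 1 or 2 of Nicol+/- or with a replicate block. Cytochrome P450 enzymes gave 7 higher and 0 lower of 21, with 1 lower at an unadjusted p under 0.05 or called without Nicol+/- replicate 1. Of the rises, 3 were called when Nicol-/- replicate 1 or Nicol+/- replicate 2 was left out and 4 when Nicol+/- replicate 3 was. Cyp2e1, which oxidizes small molecules such as ethanol, had 4.46, 5.88 and 4.47 FPKM in Nicol-/- and 1.22, 1.88 and 1.96 FPKM in Nicol+/- (log2 fold change 1.15, standard error 0.15, adjusted p = 0.000838). Of 16 glycolysis genes 6 were higher and 1 lower, but 2 were higher with a replicate block and 3 without Nicol+/- replicate 3. Ldha, lactate dehydrogenase A, was higher at 139.6, 172 and 181 FPKM in Nicol-/- and 102, 118 and 93.8 FPKM in Nicol+/- (log2 fold change 0.64, standard error 0.11, adjusted p = 0.0052), and the fall was Hk2, a hexokinase, at 19.4, 20.3 and 13.5 FPKM in Nicol-/- and 31.2, 34.3 and 43.6 FPKM in Nicol+/-.

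Marker genes of other cell types moved as well, to be read beside shares of 12.3% lower and 9.21% higher over all tested genes. Of 16 tested endothelial markers 8 were lower and 0 higher (also none at an unadjusted p under 0.05), and their summed FPKM was 84.7 to 93.6 in Nicol-/- and 136.7 to 183.6 in Nicol+/-. Plvap, the diaphragm protein of fenestrated vessels, had 2.53, 3.03 and 3.64 FPKM in Nicol-/- and 28.1, 36.6 and 43.9 FPKM in Nicol+/- (log2 fold change -3.18, standard error 0.16, adjusted p = 1.71e-06) and fell most. Pecam1, an adhesion molecule of endothelial junctions, had 5.07, 5.93 and 5.27 FPKM in Nicol-/- and 10.7, 8.06 and 11.3 FPKM in Nicol+/- (log2 fold change -0.77, standard error 0.12, adjusted p = 0.00276), and Kdr, the VEGF receptor, 2.004, 2.29 and 2.42 FPKM in Nicol-/- and 4.85, 3.79 and 8.21 FPKM in Nicol+/-. Cdh5, the cadherin that defines endothelium, did not pass, at 5.03, 5.24 and 4.25 FPKM in Nicol-/- and 5.74, 5.14 and 7.2 FPKM in Nicol+/- (log2 fold change -0.26, adjusted p = 0.17).

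Part of the muscle, matrix, ciliated cell and sperm markers were higher. Of 14 smooth muscle markers 9 were higher and Actg2 was lower, with 5 rises under a replicate block or without Nicol+/- replicate 2 and 4 when Nicol-/- replicate 1 or Nicol+/- replicate 3 was left out. Acta2, smooth muscle alpha-actin, had 369, 325 and 330.2 FPKM in Nicol-/- and 254, 206 and 164 FPKM in Nicol+/- (log2 fold change 0.73, standard error 0.14, adjusted p = 0.00718), and Cnn1, calponin, 63.9, 58.4 and 73.2 FPKM in Nicol-/- and 43.3, 44.7 and 36.4 FPKM in Nicol+/- (log2 fold change 0.64, standard error 0.10, adjusted p = 0.00336). The summed FPKM of the list was 1195.8 to 1355.4 in Nicol-/- and 1919.0 to 2045.2 in Nicol+/- with Actg2 in the sum. Of 15 fibroblast markers 5 (33.3%) were higher and 2 (13.3%) lower, beside 9.21% and 12.3% over all tested genes. The rises numbered 8 with a replicate block or without Nicol-/- replicate 2, 3 without Nicol+/- replicate 3 and 2 when Nicol-/- replicate 1 or Nicol+/- replicate 2 was left out. Their summed level was 425.8 to 604.7 in Nicol-/- and 308.5 to 409.5 in Nicol+/-. Pdgfra, a receptor that defines fibroblasts, went the other way, at 21.4, 17.6 and 18.5 FPKM in Nicol-/- and 34.1, 31.5 and 42.2 FPKM in Nicol+/- (log2 fold change -0.87, standard error 0.12, adjusted p = 0.00144). Fbln1, a matrix protein, had 8.46, 9.16 and 10.8 FPKM in Nicol-/- and 4.78, 5 and 5.11 FPKM in Nicol+/-.

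The summed level of spermatid and sperm transcripts was highest in Nicol-/- replicate 3. Of 16 tested, 7 (43.8%) were higher and 0 lower (also 0 lower at an unadjusted p under 0.05), beside 9.21% higher and 12.3% lower over all tested genes. Of these transcripts 3 were higher without Nicol+/- replicate 3 and 4 without Nicol+/- replicate 2. Their summed level was 361, 454.5 and 868 FPKM in Nicol-/- and 261, 178 and 192 FPKM in Nicol+/-. Prm1 and Tnp1, which pack sperm DNA, had 66.8, 77.7 and 117 FPKM and 36.1, 47.5 and 65.8 FPKM in Nicol-/-, against 29.5, 23.3 and 20.96 FPKM and 19.8, 12.4 and 9.81 FPKM in Nicol+/-. Markers of ciliated cells of the efferent ducts gave 5 higher (45.5%) and 0 lower of 11 (also 0 lower at an unadjusted p under 0.05), beside the same shares. There were 2 rises with a replicate block, 1 when replicate 1 or 3 of Nicol+/- was left out and 3 when Nicol-/- replicate 3 or Nicol+/- replicate 2 was. Their summed level was 120.9 to 174.3 FPKM in Nicol-/- and 86.7 to 100.3 FPKM in Nicol+/-. Foxj1, the factor that drives ciliated cells, had 11.03, 14.3 and 31.7 FPKM in Nicol-/- and 3.7, 7.99 and 7.43 FPKM in Nicol+/- (log2 fold change 1.36, standard error 0.36, adjusted p = 0.0285) and lost its call when replicate 1 (adjusted p = 0.079) or replicate 3 (0.0582) of Nicol+/- was left out. Of the 128 rises over 2-fold, 92 were highest in Nicol-/- replicate 3 among the mutants, as were 616 of all 1229 rises. The part of sperm and efferent duct tissue in these rises was not tested.

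Epithelial cell markers moved in both directions, beside shares of 12.3% lower and 9.21% higher over all tested genes. Of 8 tested principal cell markers 3 were lower, 1 (Clu) was higher, and Gpx5, Lcn5, Spag11b and Aqp9 did not pass. With a replicate block 3 of these markers were lower and 0 higher. Among markers of principal cells, Cst11 and Crisp1, both secreted by the caput, were lower, Cst11 at 289, 684 and 496 FPKM in Nicol-/- and 3959.9, 5439.7 and 6655 FPKM in Nicol+/- (log2 fold change -3.50, standard error 0.33, adjusted p = 0.000126) and Crisp1 at 12.6, 48.97 and 5.61 FPKM in Nicol-/- and 186, 163 and 393 FPKM in Nicol+/-. The Crisp1 call was lost without Nicol+/- replicate 3 (log2 fold change -3.41, adjusted p = 0.0658), and without that library 1 principal cell marker was lower in place of 3, the third being Adam7, an epididymal metalloprotease-like protein. Narrow and clear cell markers gave 3 higher and 1 lower of 7, and 2 lower with a replicate block. Foxi1, the factor that specifies these proton-secreting cells, had 69.2, 54.8 and 54.6 FPKM in Nicol-/- and 34.2, 42.8 and 37.1 FPKM in Nicol+/- (log2 fold change 0.63, standard error 0.12, adjusted p = 0.00656), while Atp6v0d2, a proton pump subunit, had 26.5, 24.4 and 25.3 FPKM in Nicol-/- and 37.5, 38.6 and 43.5 FPKM in Nicol+/-. Of 7 basal cell markers 2 were lower, both named after their values were seen, Cldn1, a claudin of tight junctions (a mean of 13.4 FPKM in Nicol-/- and 23.4 FPKM in Nicol+/-, adjusted p = 0.00457), and Itga6, an integrin of the basal surface (5.27 FPKM in Nicol-/- and 11.8 FPKM in Nicol+/-, adjusted p = 0.00073), while Krt5 and Trp63, which define the type, did not pass the test. Among macrophage markers 2 of 14 were lower, 5 without Nicol-/- replicate 3 and 1 with a replicate block, and Csf1r, which defines the lineage, did not pass, at 10.5, 13.2 and 11.1 FPKM in Nicol-/- and 12, 13.2 and 14.6 FPKM in Nicol+/-. Tight and adherens junction genes gave 7 lower and 2 higher of 21, and 4 lower and 1 higher with a replicate block or without Nicol+/- replicate 3. Cldn10, a claudin that forms ion-selective pores, had 11.9, 22.1 and 20.7 FPKM in Nicol-/- and 100.5, 126 and 125 FPKM in Nicol+/- (log2 fold change -2.66, standard error 0.20, adjusted p = 3.67e-05), whereas Cdh16, kidney-type cadherin, was higher at 265, 275 and 283 FPKM in Nicol-/- and 164, 197 and 128 FPKM in Nicol+/- (log2 fold change 0.77, standard error 0.14, adjusted p = 0.00496).

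**Figure D5:**
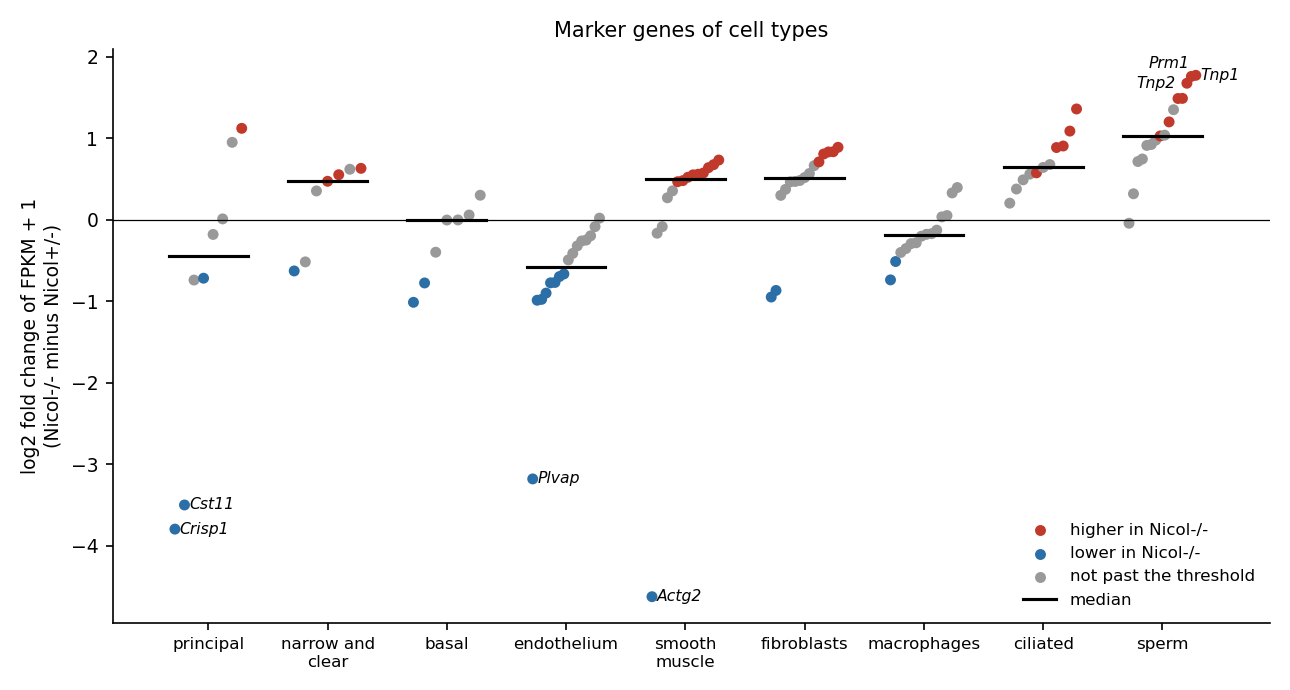
log2 fold change of FPKM + 1 (Nicol-/- minus Nicol+/-) of each tested marker gene, grouped by cell type, in red where higher, blue where lower and grey where not past the threshold, with the median of each group as a bar. Of the smooth muscle markers 9 are called above 0 and Actg2 lies at -4.63, and the endothelial markers lie at or below 0.02.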

How the data were processed

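RNA was sequenced from IS-caput tissue of 14-week-old mice with a stranded mRNA kit and single-ended reads. Mapping by the authors used TopHat2 2.1.1 and the mm10 genome, and the deposited FPKM values, scaled between libraries, came from Cufflinks 2.2.1. The sources used here do not state the strand setting of the counting. The authors also deposited a normalized signal, a scaled read count per gene, which was used only to estimate depth. Some of its values are fractional and could not be taken as whole reads, so no count test was run, and the depth bounds the precision only through the spread of the replicates.

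Genes that reached an FPKM of 1 in 3 or more of the 6 Nicol libraries were tested on log2(FPKM + 1) with limma 3.58.1 (R 4.3.3, Benjamini-Hochberg adjustment, threshold 0.05), in a fit of all 9 libraries of the series with an intensity trend and 6 residual degrees of freedom. Genes were named by rule, namely the 25 largest falls and 25 largest rises among calls with a mean of at least 5 FPKM and no overlap between genotypes, the NICOL axis, the most abundant transcripts, up to 20 transcription factors, defining cell markers, and the members of each list with the smallest p or highest level or called against the majority. Genes outside this rule are declared as chosen after their values were seen. Members, lists and rules were chosen with earlier results of these data known. Same-numbered Nicol-/- and Nicol+/- libraries deviated together, with correlations of 0.2078, 0.1126 and 0.2614 against at most 0.0676 for other pairs, so a fit with the replicate number as a block was set beside the results it changed.

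Alternatives were other pseudocounts, filters, scalings, trends and thresholds, a fit to the 6 libraries, and leaving out each library. Data for 13341 genes were simulated as independent normal values with the means and spread of this fit. In them, 97 of 100 genes changed by 1 and 99 of 100 changed by 2 on the log2 scale were called. Of 13141 unchanged genes 11 were called. The changed genes came only from those with a mean log2(FPKM + 1) above 2. The simulation thus checks the test under its own assumptions, and covers neither genes of low FPKM nor replicates that deviate together. Of the tested genes, 13317 were matched by ID to the GRCm38.p6 annotation. Overlaps of named genes with other genes come from the GENCODE annotation. Promoters and the miRNA come from RefSeq tables, windows were aligned with Biopython 1.88, and other steps used Python 3.11.15, pandas 2.3.3, numpy 2.4.6 and matplotlib 3.10.9.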

Additional observations from a re-analysis of the deposited data

How the results depend on the processing

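No named gene changed direction in any of the 22 settings in which it was tested, and 164 of 196 named genes that were called kept the call in all of those. A filter of FPKM of at least 5 left 22 named genes untested, and 151 named genes were tested and called in every setting. The genes lower in Nicol-/- (1640) numbered 1016 with a replicate block, 830 at an adjusted p under 0.01 and 966 to 1547 with 1 Nicol library left out. The genes higher in Nicol-/- (1229) numbered 669 in the fit to the 6 Nicol libraries, 797 with a replicate block, 308 at an adjusted p under 0.01 and 525 to 1083 with 1 Nicol library left out. The genes higher in Nicol-/- by over 2-fold (128) numbered 274 with a pseudocount of 0.1 and 206 with 0.5, 74 with a filter of FPKM of at least 5, 56 at an adjusted p under 0.01 and 67 to 202 with 1 Nicol library left out. The cause of these shifts was not tested, except that stricter thresholds and filters admit fewer genes by construction. The share of summed FPKM held by called genes: called lower, Nicol-/- was 7.078% on average without Rn45s and mitochondrial genes, against 7.056% with them. The replicate block changed the calls of named genes only where it is given beside them or for Abca2, Pgam1, Pkm, Cx3cr1, Smcp, Rsph1, Tekt1, Ccdc39 and Adam7, which lost theirs, and for Prm2, Akap4 and Col1a1, which passed the threshold with it. No count test was run, because the deposited values could not be taken as whole reads. The smallest called difference was 0.21 on the log2 scale, and with 3 libraries a genotype, smaller ones were not called.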
